A study of Mus musculus with 19 samples.

Results

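Leukocyte RNA of B6 mice was compared between the weeks in which transcripts of the liver were measured and the weeks in which they were near background. The first set held the samples taken at 0 w and 8 w after administration of CAWS (Candida albicans water-soluble fraction, a mannoprotein preparation that induces arteritis in DBA/2 mice), and the second held those of 2 w, 4 w and 9 w. Together they are 8 of the 18 samples of the series, 4 in each set. The sets were chosen from measured values, with Alb, Apoa2 and Fabp1 as markers of the liver, so the differences between them are a description and carry no test. All were male B6 mice that received CAWS intraperitoneally on 5 consecutive days, and 0 w was right after the last injection. There were 2 samples each at 0 w, 4 w and 8 w and 1 sample each at 2 w and 9 w. B6 0 w replicate 2 was hybridized to 2 arrays, which were averaged. The other 10 samples came from male DBA/2 mice after the same injections, with 2 at each of the 5 time points. RNA was taken from leukocytes caught from whole blood with the LeukoLOCK system. Mice were killed for RNA where they had survived to the week in question.

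Hepatocytes make most of the proteins dissolved in blood plasma, among them albumin, clotting factors, complement components and the protein parts of lipoproteins. They also carry the enzymes of drug clearance, urea production and sugar release, and during inflammation they raise the output of acute phase proteins such as serum amyloid A. Circulating leukocytes make few of these transcripts, although complement C3 and some acute phase genes are also expressed in myeloid cells.

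The values are levels on the log2 scale relative to the 75th percentile of each array, so that 0 is a bright probe and about -7 is the background. A probe counted as detected where the scanner software called it well above background, and 22939 probes detected in at least 2 samples were compared. In B6 mice the labelled replicates lay close together. The median absolute log2 difference was 0.0964 and 0.109 between B6 0 w replicate 1 and the 2 arrays of replicate 2, 0.0968 between those of 4 w and 0.102 between those of 8 w, against 0.0985 between the 2 arrays of 1 RNA. The DBA/2 replicates differed by 0.122 to 0.151. The labels call the B6 samples biological replicates, but they differed by about as much as 2 arrays of the same RNA did. The p-values given here rest on a spread pooled over the replicate pairs of both strains, most of them DBA/2, and the B6 part of it may be technical. If each B6 pair were 1 RNA, each week would hold 1 sample and 8 w against 0 w would have no test on the spread of B6 mice.

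The 3 markers stood far apart in the sets. Alb encodes albumin, the main plasma protein. Its level was 3.90 and 3.87 in the 0 w replicates and 2.95 and 2.79 in the 8 w replicates. It was -2.37 at 2 w, -6.68 and -6.74 in the 4 w replicates and -6.59 at 9 w. Alb was thus detected in the sample of 2 w as well, at a level well below every sample of 0 w and 8 w, and was not above background at 4 w and 9 w. The measured means of the sets differed by 8.97 on the log2 scale, a size that rests on the background in the 3 samples of 4 w and 9 w. Fabp1, the fatty acid binding protein of liver and intestine, followed the same order, at 3.94 and 3.89 at 0 w, 2.24 and 2.13 at 8 w, -2.91 at 2 w, -6.86 in both 4 w replicates and -6.72 at 9 w. The measured means differed by 8.89, with the same limit. Apoa2, the second protein of high density lipoprotein, was at 1.37 and 1.40 at 0 w and at 0.48 in both 8 w replicates, and was detected on none of the arrays of the other weeks (-6.87 to -6.23). Measured against the lowest detected signal of those arrays, Apoa2 was at least 51.6-fold higher. The sample of 2 w is therefore not free of liver transcripts, and the second set is a set of weeks with little or none of them. None of the 3 probes was saturated on a B6 array. On the array design's build (mm8) the probes lie at chr5:91547772-91547831 for Alb, chr1:173062402-173062461 for Apoa2 and chr6:71134491-71134550 for Fabp1. No gene annotation of that build was used here, so exon and UTR are not stated.

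**Figure D1:**
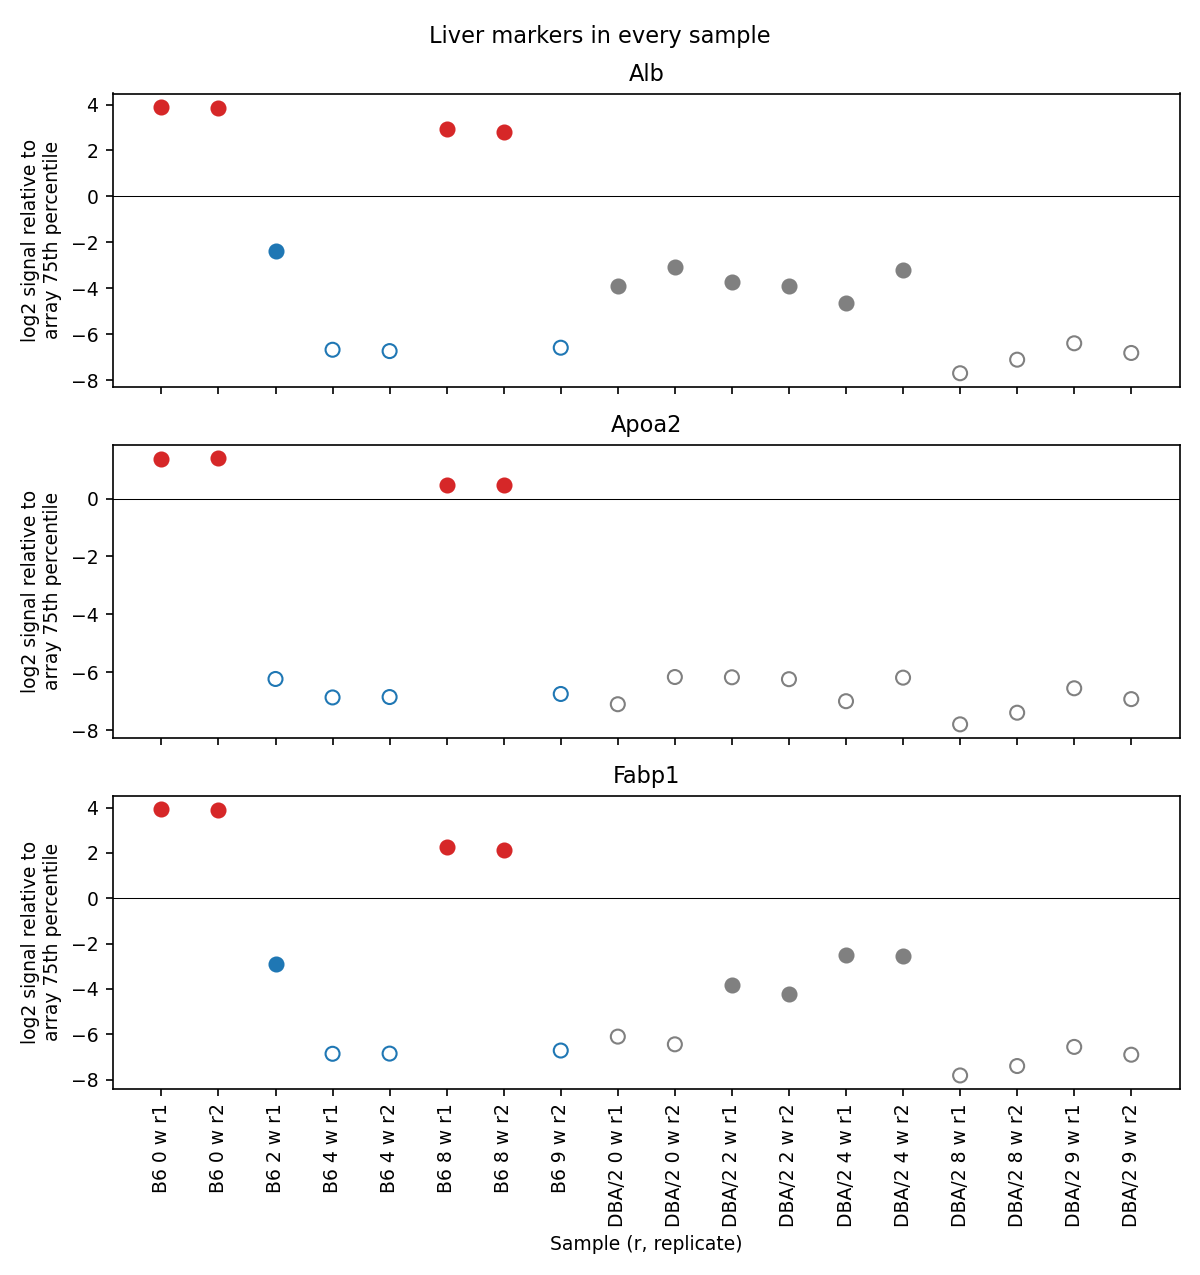
Level of Alb, Apoa2 and Fabp1 (log2 signal relative to the 75th percentile of the array, y axis) in each of the 18 samples (x axis). Red points are B6 0 w and 8 w, blue points the other B6 weeks and grey points DBA/2, and filled points were well above background. The 4 red points lie above all others for each gene, and B6 2 w is the highest blue point.

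The promoters of the 3 markers are shown because liver genes often share short motifs near the transcription start. They are from RefSeq (GRCm38.p6), each with 250 bases before and 50 after the start, all on the plus strand, at chr5:90460620-90460919 for Alb, chr6:71199629-71199928 for Fabp1 and chr1:171224804-171225103 for Apoa2, the first of its 2 entries. Capitals mark every match on either strand to 4 motifs, a hexamer searched by its letters alone (GTTAAT), one arm of the HNF4 site (CAAAGTC), a site of C/EBP (TTGNNCAA) and a TATA box (TATAAA), none of which overlapped another in these promoters.
Alb: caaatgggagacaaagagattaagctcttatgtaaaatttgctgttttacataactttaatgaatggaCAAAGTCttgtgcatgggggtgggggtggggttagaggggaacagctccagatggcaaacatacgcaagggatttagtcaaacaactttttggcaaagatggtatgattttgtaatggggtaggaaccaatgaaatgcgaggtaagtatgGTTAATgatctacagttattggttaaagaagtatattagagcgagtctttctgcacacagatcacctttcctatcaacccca
Fabp1: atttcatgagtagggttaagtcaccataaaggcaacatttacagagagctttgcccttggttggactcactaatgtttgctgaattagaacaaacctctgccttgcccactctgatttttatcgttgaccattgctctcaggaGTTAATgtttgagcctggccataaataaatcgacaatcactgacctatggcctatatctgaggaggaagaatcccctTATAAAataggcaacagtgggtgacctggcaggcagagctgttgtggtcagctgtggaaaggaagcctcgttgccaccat
Apoa2: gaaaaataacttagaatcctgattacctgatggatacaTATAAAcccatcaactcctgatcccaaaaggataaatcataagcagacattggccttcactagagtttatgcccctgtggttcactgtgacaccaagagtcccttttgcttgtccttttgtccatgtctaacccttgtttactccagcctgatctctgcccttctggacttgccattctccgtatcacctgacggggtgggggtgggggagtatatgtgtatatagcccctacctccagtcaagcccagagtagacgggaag
HNF4 and C/EBP are transcription factors of the hepatocyte, although C/EBP proteins also act in myeloid cells. Counted from the start, Alb held GTTAAT at position -32 and CAAAGTC at -182. Fabp1 held GTTAAT at -107 and TATAAA at -30, and Apoa2 held only TATAAA, at -212. Of 92 genes whose ratio of measured means between the sets was 16 or more, 66 had a promoter in the table, 72 promoters in all. GTTAAT was in 29.2% of these, against 7.10% of all 32851 promoters. TATAAA was in 31.9% against 13.6%, CAAAGTC in 11.1% against 4.44% and TTGNNCAA in 9.72% against 6.40%. The promoters of the genes that were lower at 0 w and 8 w held GTTAAT in 5.66%. A match to these letters is a description of the sequence and not evidence of binding.

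A probe was said to separate the sets where all 4 samples of one set lay above all 4 of the other and the means were at least 2-fold apart. This was so for 447 probes higher at 0 w and 8 w, 1.95% of the 22939 compared, and for 77 lower probes, 0.336%. The median difference over all probes was 0.02. The higher probes named 401 genes, of which 131 (32.7%) stood on the 12 hepatocyte lists (for genes with several probes, any of them), whereas the lists made up 1.12% of all genes compared. Of the 75 lower genes, 0 were on a hepatocyte list. Of the higher probes, 310 were detected on none of the arrays of 2 w, 4 w and 9 w, so that their fold differences are set by background on one side, and 75 were detected on all 9 B6 arrays. On the log2 scale, Mbtps1 (1.001) was just inside the threshold and Hsd3b7 (0.998) just outside on the higher side, and Ssty1 (-1.01) was just inside on the lower side.

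The higher genes were also grouped by the ratio of the measured means of the sets. Where a gene was not detected in the weeks of the second set this ratio rests on the background and is no bound, and the bounds given for such genes are smaller. It describes the measured values alone, and the genes include the 3 markers that chose the sets. Of 25 genes with a ratio of 64 or more, 20 were on the hepatocyte lists. The other 5 were Ces1c and Ces3b (carboxylesterases), Mup6 (a major urinary protein) and a pair of probes without a gene symbol. Of 67 genes with a ratio between 16 and 64, 42 were on the hepatocyte lists, of 151 between 4 and 16 53, and of 158 between 2 and 4 16. The genes on no list numbered 30 of the 92 with a ratio of 16 or more and 137 of the 158 nearest the threshold. On the lower side 72 of 75 genes had a ratio between 2 and 4, and none reached 16.

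**Figure D2:**
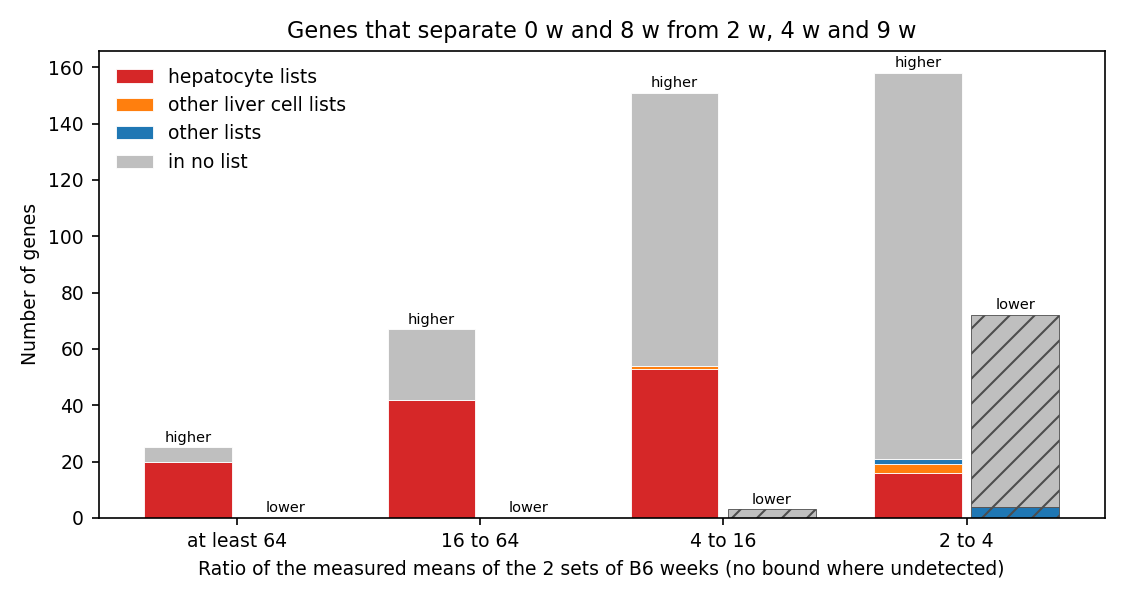
Number of genes that separated the 2 sets of B6 weeks (y axis) by the ratio of the measured means of the sets (x axis), plain bars for genes higher and hatched bars for genes lower at 0 w and 8 w, coloured by the list that holds the gene. Hepatocyte lists hold 20 of the 25 genes with a ratio of 64 or more and 16 of the 158 genes between 2 and 4, and no gene on the lower side. The ratio is no bound for genes not detected in the weeks of the second set.

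Among genes measured on both sides, those detected on all 9 B6 arrays, the 10 with the largest differences were Mup4, Serpina1d, Mup3, Ambp, Mup5, Serpina3m, Akr1c6, Cyp3a41a, Fgb and a probe without a gene symbol (TC1755975). Major urinary proteins carry pheromones and are secreted by the liver of male mice. Mup4 was at 5.06 and 5.04 at 0 w, 4.22 and 4.36 at 8 w, -0.56 at 2 w, -3.57 and -3.60 at 4 w and -4.23 at 9 w, a difference of 7.66 (202-fold). Probes of the Mup family can bind transcripts of several members, so the family is better read as 1 signal. Serpina1d, one of the genes of alpha-1 antitrypsin, was at 4.75 and 4.73 at 0 w and 3.92 and 3.86 at 8 w, and at -1.01 at 2 w, -3.58 and -3.95 at 4 w and -4.18 at 9 w (180-fold). Ambp, which encodes alpha-1-microglobulin and bikunin, differed by 5.23 (37.7-fold), and Fgb, the fibrinogen beta chain, by 3.93 (15.2-fold). In each of these the sets did not overlap, and 2 w was between them for Mup4 and Serpina1d.

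Where a gene was detected on all 5 arrays of 0 w and 8 w and on none of the others, only a lower bound of the fold can be given. Among the largest bounds were at least 51.6-fold for Apoa2, 45.2-fold for Uox (urate oxidase), 40.2-fold for Fbp1 (fructose-1,6-bisphosphatase) and 36.9-fold for Hpx (hemopexin, which binds heme). F2 (prothrombin), Mup6, Vtn (vitronectin), Ces3b and Kng1 (kininogen) followed with bounds of at least 30.5-fold, 28.1-fold, 26.1-fold, 23.8-fold and 19.1-fold. Uox was at 1.22 and 1.21 at 0 w and 0.26 and 0.28 at 8 w, and between -6.56 and -4.86 in the other B6 samples. On the lower side the 2 genes that met the mirrored condition were AK140063 and the olfactory receptor Olfr100, with bounds of at least 1.82-fold and 1.62-fold lower. The genes named for their bounds on the higher side were thus mostly liver enzymes and plasma proteins.

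The lists show which hepatocyte functions separated the sets, each gene being represented by its brightest probe. Of 216 genes on the hepatocyte lists, 208 were on the array, 186 passed the filter, and 125 of these were higher at 0 w and 8 w, with a median difference over the 186 of 2.88 against 0.02 over all probes. A gene could pass the filter through the weeks in which it was high alone, so the count is no test. Plasma proteins (clotting factors, carriers and protease inhibitors) had 37 of 44 higher, with a median difference of 3.92. Apolipoproteins and lipid transport proteins had 10 of 11, with a median of 4.09. Enzymes of amino acid, urea and sugar metabolism had 22 of 30 (median 3.25), cytochrome P450 and other drug enzymes 18 of 27 (2.65) and complement components 12 of 17 (2.56). In all of these most members were on the higher side, and no member separated in the other direction.

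Other groups followed less closely. Acute phase proteins had 8 of 18 higher (median 1.58), bile acid synthesis and transport 4 of 10 (0.73) and hepatocyte transcription factors 3 of 9 (0.34). Of the transcription factors, Nr1h4 (the bile acid receptor) differed by 1.86 and Nr5a2 by 1.08, detected on 3 and 1 of the 5 arrays of 0 w and 8 w, whereas Hnf4a, at -4.04 to -3.65 at 0 w and 8 w and -3.57 to -2.96 in the other weeks, was lower by less than 2-fold (-0.51). Cyp7a1, the rate-limiting enzyme of bile acid synthesis, was detected on no B6 array. Slc27a5, which activates bile acids, was at -1.61 in both 0 w replicates and at -2.21 and -2.44 at 8 w, and was at least 6.91-fold higher than at the other weeks. The genes that did not separate include some that leukocytes also express. Haptoglobin (Hp), for example, was at 2.07 and 2.11 at 0 w, 2.04 at 2 w, 1.91 and 1.97 at 4 w, 4.12 and 4.20 at 8 w and 2.68 at 9 w.

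Genes of both ends of the liver lobule were among the members. Of the periportal genes 8 of 10 were higher, such as Cyp2f2 (a cytochrome P450), at -0.30 and -0.43 at 0 w and -1.35 and -1.34 at 8 w and not detected in the other weeks, at least 14.9-fold higher. Of the pericentral genes 3 of 12 were higher, among them Cyp2e1 (which oxidizes ethanol), at -0.69 and -0.71 at 0 w and -1.40 and -1.55 at 8 w, at least 12.7-fold higher. Glul, glutamine synthetase and the classical pericentral gene, was between 0.35 and 0.55 in all 8 B6 samples. Genes that are higher in livers of males had 9 of 12 higher and those higher in females 3 of 5, although all mice were male. Genes of both zones were thus among those that separated the sets, and the difference between the shares of the lists was not tested.

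**Figure D3:**
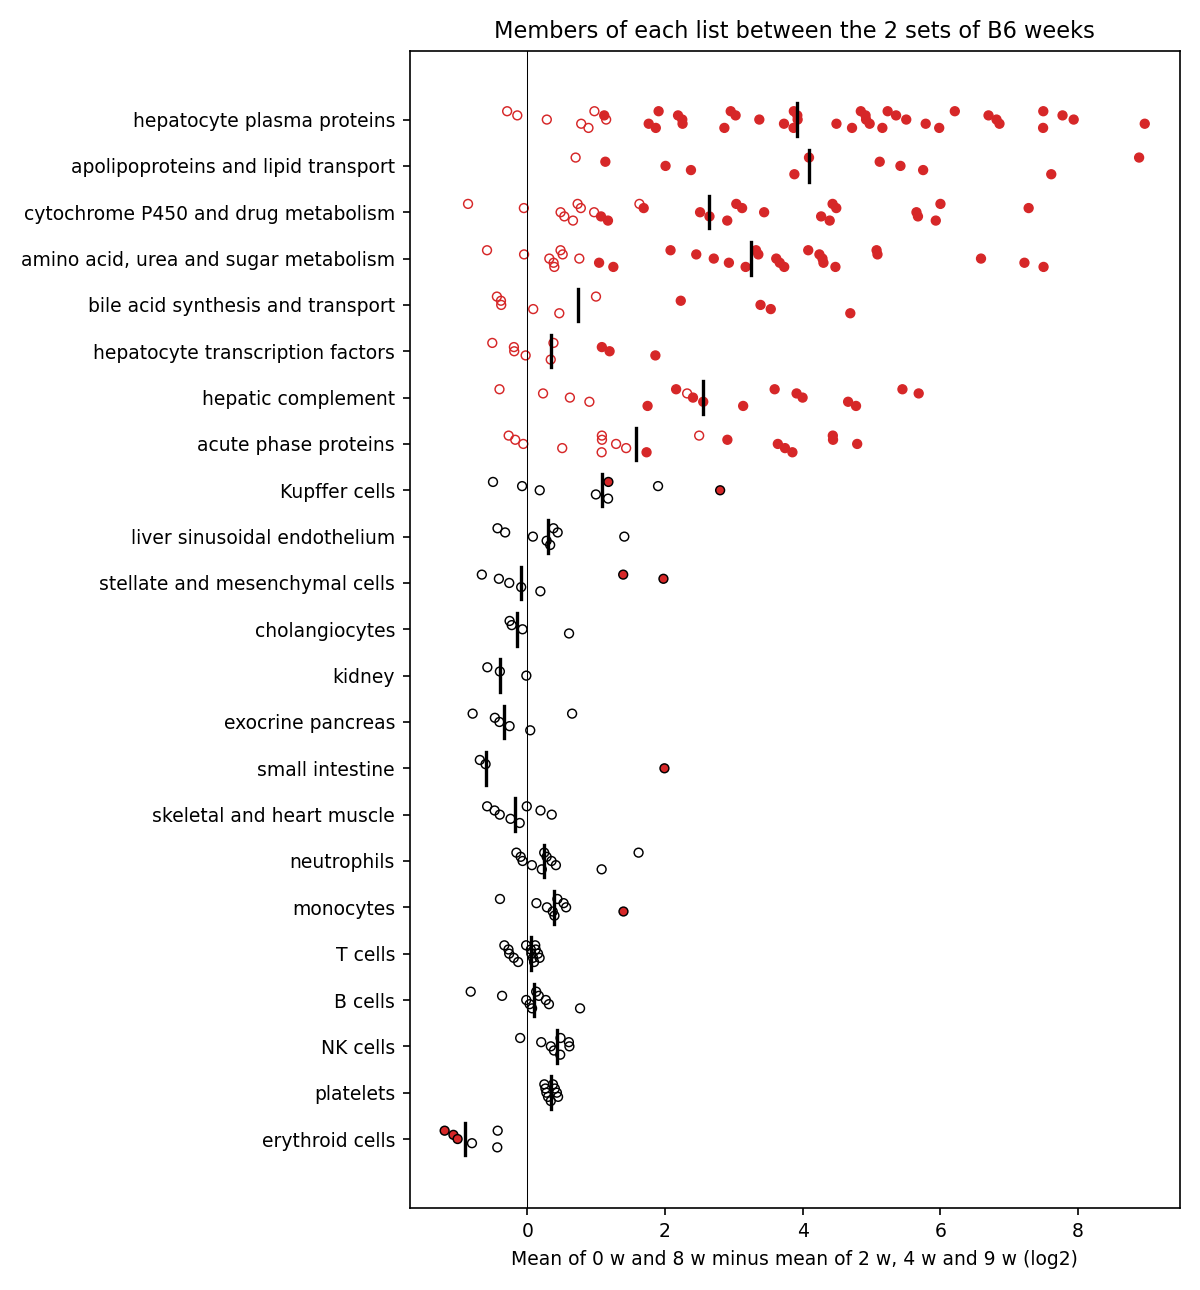
Difference between the means of the 2 sets of B6 weeks (log2, x axis) for each measured member of the lists shown (y axis), with a black bar at the median of the list, filled points for members that separated the sets and red outlines for hepatocyte lists. The sex-biased, periportal and pericentral lists are among those not drawn. Members of the hepatocyte lists shown reach 8.97 (Alb), whereas the medians of the blood cell lists lie between -0.91 and 0.43.

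Fewer genes of other liver cells separated the sets. Of 8 measured Kupffer cell genes 2 were higher, Clec4f (a lectin of Kupffer cells) and Folr2, with a list median of 1.08. Clec4f was at -3.95 and -3.52 at 0 w and at -4.12 and -4.24 at 8 w, was detected on 4 of the 5 arrays of these weeks, and was between -6.84 and -6.69 without detection in the others, at least 1.74-fold higher. Folr2 was detected on no B6 array. Genes of sinusoidal endothelium had 0 of 8 separating, stellate and mesenchymal cells 2 of 7 (28.6%, Dcn and Colec11) and bile duct cells 0 of 4. Dcn (decorin, of the connective tissue matrix) was at -3.90 to -3.67 at 0 w and 8 w, detected on 4 of 5 arrays, and at least 1.97-fold higher than in the other weeks (-6.65 to -5.02), where it was not detected. Of 45 genes of kidney, exocrine pancreas, small intestine, muscle, adipose tissue and lung, 23 passed the filter and 1 separated, Fabp2 of the small intestine list (-5.00 to -3.11 against -6.71 to -5.59). The separating genes of other liver cells were thus few in number and low in signal beside those of hepatocytes. Their shares of the Kupffer and stellate lists were above that of all probes, and their part in the differences was not tested.

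Genes of blood cells, the labelled tissue, were listed as well. Of 53 neutrophil, monocyte, T cell, B cell and NK cell genes on the array 52 passed the filter, and 51 of these did not separate the sets. The 1 that did, a monocyte gene, was on the higher side. That is 1.92% of the 52, about the 1.95% of all probes that were higher. The medians of the lists lay between 0.05 (T cells) and 0.43 (NK cells). Erythroid genes went the other way, with 3 of 6 lower and a median of -0.91. Slc4a1, the anion exchanger of red cells, was at 5.69 in both 0 w replicates and 4.88 and 4.81 at 8 w against 6.43 at 2 w, 6.32 and 6.27 at 4 w and 6.10 at 9 w, a difference of -1.01. Epb42, a protein of the red cell membrane, differed by -1.20 and Klf1, the erythroid transcription factor, by -1.07. Levels of hemoglobin were high throughout, with Hba-a1 between 10.2 and 11.6 in all B6 samples, although its probe was saturated on 6 of the 9 arrays. In bulk RNA, fewer cells of a type and less RNA per cell cannot be told apart, and each array was scaled to its own 75th percentile. The part of red cell RNA in the differences was not tested.

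Among the other lower genes detected on all 9 arrays, the 10 with the largest differences were AK029558, Epb42, Cd36, Atg4a, Dcaf6, a probe without a symbol, Xpo7, Cir1, Tspan8 and Atp4a. Their differences ran from -1.41 to -1.05, smaller in size than any of the 10 on the higher side. Cd36, a fatty acid transporter of platelets and red cell precursors, was at 0.55 and 0.54 at 0 w and 0.23 and 0.24 at 8 w against 1.36 to 1.68 in the other weeks. Atg4a, a protease of autophagy, was at 1.20 and 1.17 at 0 w and 0.59 and 0.58 at 8 w against 1.89 to 2.21. The probe without a symbol owed the size of its difference to 2 w (1.11, against -2.66 to -2.56 at 4 w and 9 w). AK029558 owed most of its difference to 0 w (-3.43 and -3.27). It was at -1.20 and -1.25 at 8 w, near the -0.99 to -0.77 of the other weeks.

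Detection followed the sets sample by sample. Of 104 probes with a ratio of measured means of 16 or more, 74 were detected on none of the arrays of 2 w, 4 w and 9 w. All 104 were detected in every sample of 0 w and 8 w, which the choice of probes favours, 26 at 2 w, 10 and 13 in the 4 w replicates and 9 at 9 w. The DBA/2 samples had between 10 and 28 of them. The summed linear level of the 125 separating hepatocyte genes, in units of the 75th percentile, was 260.8 and 261.2 at 0 w, 182.5 and 186.8 at 8 w, 11.1 at 2 w, 7.21 and 7.17 at 4 w and 8.61 at 9 w. The mean of 8 w was 70.7% of that of 0 w, and the means of 2 w, 4 w and 9 w were 4.27%, 2.75% and 3.30% of it, and part of the low values is background. These genes were chosen for being low in those weeks. Over the 208 hepatocyte-list genes on the array, detected or not, the sums were 289.7 and 292.6 at 0 w and 249.3 and 265.1 at 8 w. They were 37.5 at 2 w, 32.5 and 37.5 in the 4 w replicates and 53.7 at 9 w, then the highest of the latter weeks. In DBA/2 the sums of the 125 separating genes were 6.61 to 13.3. They were above the 4 w sums of the same genes in B6 in all but 1 sample. In every sample they were far below B6 0 w and 8 w. Over the 208 genes the DBA/2 sums were 27.8 to 61.1. For the 9 members detected at 2 w and at neither 4 w nor 9 w, the median difference of 2 w from 0 w was -5.75, with a range from -6.82 (Fabp1) to -4.53 (Adh1).

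**Figure D4:**
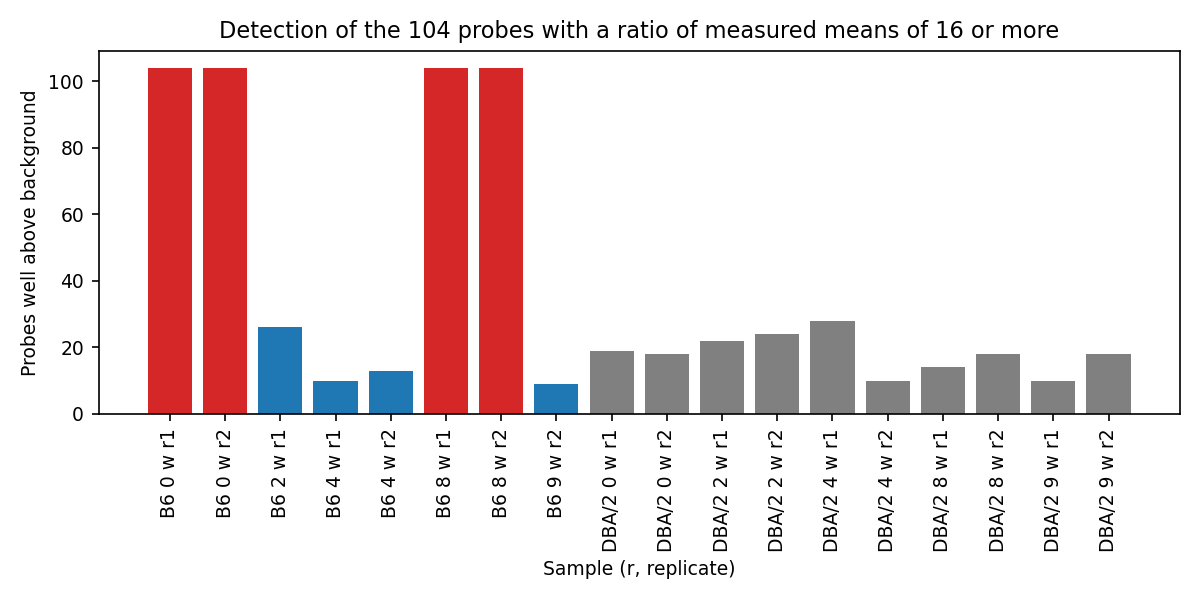
Number of the 104 probes with a ratio of measured means of 16 or more between the sets that were well above background (y axis) in each of the 18 samples (x axis), with red for B6 0 w and 8 w, blue for the other B6 weeks and grey for DBA/2. All 104 were detected in the 4 red samples, 26 at B6 2 w and 9 to 28 in the rest.

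The difference was also taken within batches. Replicate number was also the day of scanning, and each number held both sets. The median difference of the 125 members was 3.97 within replicate 1, 4.05 within replicate 2, 4.05 within slide 1 and 4.25 within slide 3, the slides that held both sets, against 3.92 over all samples. Since the members were chosen for separation in these same samples, their direction within a batch is fixed by that choice, and the values are a description that does not test a batch effect. Genes measured by several probes did not always give 1 answer. Of 41 hepatocyte genes with several measured probes, 20 had all probes higher, 10 had none and 11 were mixed. Saa1, for example, differed by 1.44 with its brighter probe and by 6.79 with the other, and Serpinc1, antithrombin, by 0.28 and 6.27.

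The comparison of 8 w with 0 w asked whether the 2 weeks with liver transcripts carried the same ones. The members were not chosen on this difference, so it was tested, with limma across all samples and Benjamini-Hochberg adjustment over the 22939 probes. At an adjusted p under 0.05, 2514 probes rose (11.0%) and 2348 fell (10.2%). Of the 186 hepatocyte genes, 16 rose (8.60%) and 33 fell (17.7%), and 137 did not pass. The median difference was -0.51 over the 186 against -0.04 over all probes. For 104 separating members detected on all arrays of both weeks the median was -0.66, with quartiles of -0.99 and -0.22. Of their differences 82 of 104 were below 0, against 12279 of the 22939 probes. The replicates of 0 w differed by a median of 0.01 over these members and those of 8 w by 0.01. The count of falls was not stable, at 14 to 45 with a sample left out, 72 with a floor of 10, 70 in B6 samples alone and 3 (with 8 rises) with normexp background correction, under which the median of all probes moved to -0.63. In the deposited table without scaling it was 7, with 56 rises, and the median of all probes 0.98. It was 14 (with 13 rises) without B6 0 w replicate 1, 18 without its replicate 2, 19 without B6 8 w replicate 1 and 16 without its replicate 2.

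Among the falls were lipid carriers and drug enzymes. Fabp1 fell by 1.72 on the log2 scale (SE 0.19, adjusted p = 0.000197, limma), from a mean of 3.91 to 2.19. Cyp3a41a, a cytochrome P450 of the steroid and drug enzymes, was at 1.03 and 0.89 at 0 w and -1.33 and -1.25 at 8 w, and fell by 2.25 (SE 0.24, adjusted p = 0.000173, limma). Cyp3a44 fell by 2.04, Cyp2a5 by 1.94 and Cyp3a11 by 1.92, with adjusted p of 0.000436, 0.00162 and 0.0445 (limma). The Cyp3a probes may share targets within the family, and Cyp3a11 missed the threshold when any 1 sample of 0 w or 8 w was left out. With normexp background correction Cyp3a41a still passed (adjusted p = 0.041, limma), and Fabp1, Cyp3a44, Cyp2a5 and Cyp3a11 did not (0.161, 0.165, 0.114 and 0.12). For Alb and Apoa2 the differences were -1.02 (SE 0.43, adjusted p = 0.134) and -0.90 (SE 0.32, adjusted p = 0.0768) by limma, which did not pass. These SEs pool both strains. Alb was at 3.90 and 3.87 in the B6 replicates of 0 w and 2.95 and 2.79 in those of 8 w. The DBA/2 replicates of 4 w lay further apart, Alb at -4.64 and -3.18 and Apoa2, undetected, at -7.00 and -6.19. Not passing therefore does not show that the 2 B6 weeks were alike for these genes. By list, 7 of 27 P450 and drug enzymes, 3 of 11 lipid transport genes, 7 of 30 metabolic enzymes and 7 of 44 plasma proteins fell, and 0, 0, 1 and 3 rose. Over all probes 10.2% fell and 11.0% rose.

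Of the 16 rises, 7 were of acute phase genes. Saa2, a serum amyloid A of the liver, was at -2.08 and -1.99 at 0 w, -2.52 at 2 w, -2.71 and -3.06 at 4 w, 4.00 and 4.03 at 8 w and -3.16 at 9 w. It rose by 6.05 on the log2 scale from 0 w to 8 w (SE 0.31, adjusted p = 1.99e-06, limma), and only 8 w stood out among the weeks. Mt2, a metallothionein that binds zinc, had the same shape, at -2.17 and -2.24 at 0 w and 1.46 and 1.45 at 8 w against -3.51 to -2.98 in the other weeks, and rose by 3.66 (SE 0.16, adjusted p = 8.13e-07, limma). Saa3, which macrophages make as well, rose by 3.86, Saa1 by 3.23 and Mt1 by 2.11, with adjusted p of 0.000433, 1.16e-05 and 2.84e-07 (limma). At 9 w Saa3 was at 2.11, as high as at 8 w, in a sample in which Alb was not detected. Of 18 measured acute phase genes 7 rose and 1, Hamp2, fell, with a median of 1.71, where 11.0% of all probes rose and 10.2% fell. Of the plasma proteins Hp rose by 2.07 and Hpx by 1.63, and of complement C3 rose by 0.56, with adjusted p of 2.84e-07, 0.0487 and 0.000393 (limma).

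**Figure D5:**
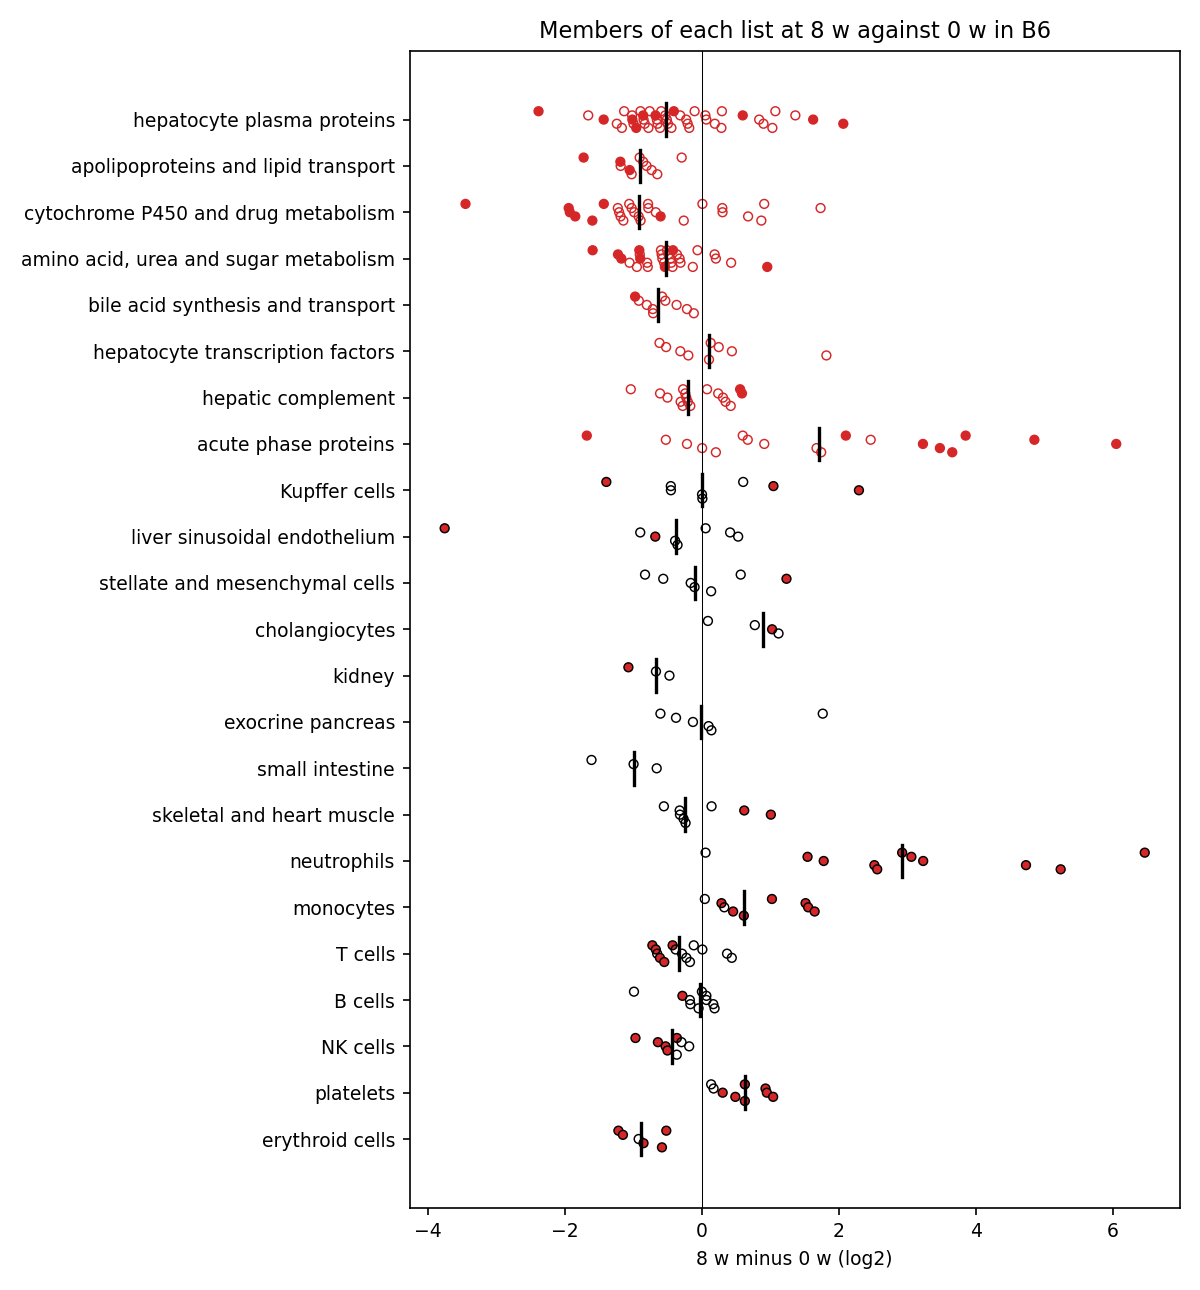
Difference between 8 w and 0 w in B6 mice (log2, x axis) for each measured member of the lists shown (y axis), with a black bar at the median of the list and filled points at an adjusted p under 0.05 (limma). The medians are 1.71 for acute phase proteins, -0.90 for lipid transport, -0.92 for P450 and drug enzymes and 2.93 for neutrophils.

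Blood cells moved between these weeks too. Of 11 measured neutrophil genes 10 rose, with a median of 2.93, and the summed level of the list was 57.5 to 57.8 at 0 w, 431.3 to 433.7 at 8 w and 140.8 to 225.2 in the other weeks. S100a9, a calcium-binding protein abundant in neutrophils, rose from a mean of 5.66 to 8.59 (SE 0.11, adjusted p = 2.84e-07, limma). Of 9 platelet genes 7 rose and of 6 erythroid genes 5 fell (median -0.88), beside 11.0% of all probes that rose and 10.2% that fell. Saa3, Hp, Mt2 and other acute phase genes are expressed in myeloid cells as well, and the part of neutrophils in their rise was not tested. No gene of the neutrophil or platelet list separated the sets, and the summed neutrophil level was lowest at 0 w and highest at 8 w.

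The same weeks in DBA/2 mice gave a comparison that the choice of sets did not use. With 0 w and 8 w set against 2 w, 4 w and 9 w and limma as before, 1503 of 22935 probes were higher (6.55%) and 1954 lower (8.52%) at an adjusted p under 0.05. Of the 186 hepatocyte genes, 2 were higher, Plg and Ass1, and 30 were lower (16.1%), with a median of -0.22 against -0.02 over all probes. A gene could pass the filter through the B6 weeks in which it was high alone. Of the 104 probes with a ratio of 16 or more between the B6 sets, a DBA/2 sample had only 10 to 28 detected. Plg (plasminogen) was higher by 0.38 and Ass1 (argininosuccinate synthase of the urea cycle) by 0.30, with adjusted p of 0.0177 and 0.0115 (limma), and the sets overlapped for Plg (0 w at -4.18 and -4.05, 9 w at -3.34 and -3.45) but not for Ass1 (-2.42 to -2.23 against -2.80 to -2.49). Alb was detected in the 6 samples of 0 w, 2 w and 4 w (-4.64 to -3.06) and in none of 8 w and 9 w (-7.70 to -6.40). Its difference was -0.67 (SE 0.28, adjusted p = 0.15, limma). Apoa2 was detected on no DBA/2 array, yet was at -7.80 and -7.40 at 8 w and at -6.17 and -6.24 at 2 w. Background thus differed between the arrays, and its part in the count of lower genes was not tested.

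In DBA/2 mice, the hepatocyte genes that were lower at 0 w and 8 w included Saa3, Fabp1, Gsta3, Cfhr2 and C4b. Fabp1 was detected only at 2 w (-3.82 and -4.23) and 4 w (-2.51 and -2.56), and was at -7.82 to -6.11 in the other samples. Its means were -6.94 at 0 w and 8 w and -4.43 at the other weeks (adjusted p = 2.96e-05, limma). Saa3 was at -3.89 and -4.25 at 0 w, 0.68 and 0.71 at 2 w, 3.38 and 3.37 at 4 w, 1.09 and 1.10 at 8 w and 0.53 and 0.47 at 9 w, with 0 w apart from all later weeks and 8 w above 2 w. Gsta3, a glutathione transferase, was detected in 2 of the 10 samples, 1 of 2 w and 1 of 4 w. Cfhr2, a plasma protein of the complement system, and C4b, complement C4, were lowest at 0 w and highest at 4 w, Cfhr2 at -6.37 and -6.51 against -2.69 in both and C4b at -2.99 and -2.98 against 0.24 and 0.23, with the value of 1 sample of 9 w left out as an outlier spot for C4b. The adjusted p of Saa3, Gsta3, Cfhr2 and C4b were 0.000549, 0.00258, 0.000194 and 0.00808 (limma). With normexp background correction only Saa3 of these 5 genes passed, and the differences of Plg and Ass1 turned to -0.13 and -0.071. At other settings the count of lower hepatocyte genes fell to 1 (another background correction) and 16 (DBA/2 samples alone), and it was 18 without DBA/2 0 w replicate 1 and 18 without DBA/2 8 w replicate 1. No sample of DBA/2 mice had the level of Alb, Apoa2 or Fabp1 that B6 mice had at 0 w and 8 w.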

How the data were processed

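The authors labelled leukocyte RNA with Cy3, hybridized it to single-colour Agilent whole mouse genome arrays (G4122F) and extracted the images with Agilent Feature Extraction 9.5.3.1. The deposited processed signal is an intensity on a linear scale, background-subtracted and detrended by that software, with no scaling between arrays. The table of values deposited for the series gives this intensity as a mean of each probe's spots. Control and outlier spots were left out and spots of a probe averaged. The log2 of the deposited intensity was taken, and each array was centred on its 75th percentile, taken over the 11536 probes that every one of the 19 arrays detected well above background. Of 41174 probes, 24375 were named through their accession, 6301 by gene name and 2426 by synonym, and 8072 kept the name in the file. A gene was represented by its probe with the highest mean in the 8 B6 samples. The 2 arrays of B6 0 w replicate 2 were averaged.

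The weeks, members and lists were chosen with earlier results of these data known. Samples were grouped by strain and week from the labels. Probes well above background in at least 2 samples were compared, 22939 in all. B6 8 w against 0 w and the week sets in DBA/2 mice were tested with limma 3.58.1 (R 4.3.3) on all 18 samples, lmFit and eBayes with a group mean each, 8 residual degrees of freedom and Benjamini-Hochberg adjustment over all probes. The fit was tested on simulated data. Named genes were the markers, the 10 largest differences a direction among probes detected on all B6 arrays, the 10 largest bounds, up to 4 members of each list with the highest signal, members against their list, and up to 5 hepatocyte genes a direction past the threshold in each test (for 8 w against 0 w, detected on all arrays of both weeks). Other members were named after their values were seen. A lower bound set the mean of the bright set against, for each dim array, the higher of its lowest detected signal and the probe's own. The number of arrays limits the precision. Background correction, scaling, filters, the floor, arrays, samples, slides and replicate number were varied. Some genes that the rule names are not reported here.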

Additional observations from a re-analysis of the deposited data

Results flagged for a closer look

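Alb was at -2.37 in the sample of B6 2 w, against -6.74 to -6.59 at 4 w and 9 w, and the gap to the nearest of these samples was 0.966 of the range of the 4 samples. Fabp1 was at -2.91 there, with a gap of 0.964 of the range. Both gaps exceed Dixon's critical value for 4 samples, which chance passes in about 1 of 20 sets, but the values are those of markers used to choose the weeks, they come from 3 different weeks and the other 3 lie at background, so they are a description and not a test. Apoa2 was at -6.23 in the same sample, was not above background and did not pass.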

How the results depend on the processing

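Of the differences of named genes, 64 kept their direction under all alternatives and 4 changed it in 1 setting or more: 8 w against 0 w became 0.0059 for Alb and 0.12 for Apoa2 in the deposited value table without scaling, and in DBA/2 mice Plg became -0.13 and Ass1 -0.071 with normexp. Counts depended more on the setting, and the cause was not tested. Normexp moved the median of all probes to -0.21 between the B6 sets, -0.63 for 8 w against 0 w and -0.26 in DBA/2 mice, and the unscaled table moved it to 0.43, 0.98 and 0.11.

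The B6 sets gave 447 higher and 77 lower probes. Normexp gave 107 and 5, detection in at least 9 samples 135 and 42, a 4-fold minimum 277 and 3, no minimum fold 1022 and 757, replicate number 1 alone 801 and 564, slide 1 alone 717 and 507 and slide 3 alone 1108 and 873. The lower count was 6 in the unscaled table, 32 with a floor of 10 and 404 within replicate number 2. The 125 higher hepatocyte genes became 59 with normexp and 39 with detection in at least 9 samples, and the 0 lower ones became 1 within replicate number 1, 3 within slide 3 and 4 with no minimum fold. With 1 sample left out the probes numbered 453 to 566 higher and 102 to 222 lower (222 without 9 w, 203 and 153 without 0 w replicates 1 and 2, 118 without 4 w replicate 1, 117 without 8 w replicate 2), and the hepatocyte genes 123 to 130 and 0 to 0.

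For 8 w against 0 w, the 2514 rises and 2348 falls became 390 and 388 with normexp, 14164 and 77 in the unscaled table and 1490 and 1230 with no filter. The 16 and 33 hepatocyte genes became 8 and 3, and 56 and 7, in the first 2 of these, 27 and 72 with a floor of 10, and the falls 17 with no filter, 21 with detection in at least 9 samples and 70 in B6 samples alone. Without 1 sample the probes ranged from 1669 to 2613 and from 1236 to 2506 (rises 1669 without 0 w replicate 2, falls 1236 and 1560 without 0 w replicates 1 and 2 and 1536 and 1467 without 8 w replicates 1 and 2), and the hepatocyte genes from 13 to 19 and from 14 to 45. In DBA/2 mice the 1503 and 1954 probes became 4 and 3 with normexp, 3152 and 626 in the unscaled table, 245 and 684 with no filter and 673 and 1167 in DBA/2 samples alone. The 2 and 30 hepatocyte genes became 0 and 1 with normexp, 0 and 14 with no filter, 1 and 16 in DBA/2 samples alone, 13 lower in the unscaled table and 6 higher with slide as a block. Without 1 sample the probes ranged from 695 to 1731 and from 1212 to 2446 (of DBA/2 samples, higher probes 695 without 8 w replicate 1, 723 and 930 without 0 w replicates 1 and 2, 917 without 2 w replicate 2 and 930 without 4 w replicate 2, and lower probes 1212 without 0 w replicate 2 and 1219 without 8 w replicate 2), and the hepatocyte genes from 1 to 3 and from 18 to 36.

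Replicate number was not part of the main fit. The correlation of deviations between same-numbered samples ran from -0.01 to 0.455 over 28 pairs of groups, with a median of 0.08. Some pairs of groups may thus share a deviation by replicate number. With replicate number as a block, 8 w against 0 w gave 3087 rises and 3064 falls (19 and 39 hepatocyte genes), and DBA/2 mice gave 2361 higher and 2597 lower probes (2 and 32 hepatocyte genes). The number of arrays and the signal over background limit the dim genes, for which only bounds were given.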

Other observations

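Platelet genes were lowest at B6 2 w, the sample with the weak liver signal. Pf4 (platelet factor 4) was at 5.77 there against 7.13 to 7.62 in the other 7 B6 samples, Gp9 (a subunit of the von Willebrand factor receptor) at 4.05 against 5.53 to 6.27 and Itgb3 (an integrin of platelets) at 3.75 against 5.22 to 6.22. The summed level of the 9 platelet genes was 143.9 at 2 w and 388 to 571.6 in the other B6 samples.

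A pair of neutrophil genes, chosen after their values were seen, stood apart at 8 w in B6 mice. Camp (cathelicidin) was at -6.43 and -6.22 at 0 w, -3.20 at 2 w, -3.82 and -3.47 at 4 w, 0.11 and 0.18 at 8 w and -3.00 at 9 w. Ltf (lactoferrin) was at -4.09 and -4.81 at 0 w, 0.37 and 0.20 at 8 w and -3.71 to -2.90 in the other weeks. Camp was not above background at 0 w. Both were highest at 8 w and lowest at 0 w. Slc40a1, the iron exporter ferroportin, rose from -2.33 at 0 w to -0.03 at 8 w (SE 0.14, adjusted p = 6.83e-06, limma) and lay between them in the other weeks.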
